A study of Mus musculus with 2 samples.

Results

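The 10 genes described here encode the receptor chains through which blood progenitors read the myeloid and erythroid cytokines: Csf3r, Csf2ra, Csf2rb, Csf2rb2, Il3ra, Il5ra, Epor, Il6ra, Il6st and Il1rl1. The set is a list of symbols with no threshold on a measured value, and all 10 were found among the 43346 Ensembl genes of the gene tables. Total RNA-seq had been made of 2 libraries in 1 group, both labelled as a primary megakaryocyte progenitor, the CFU-Meg, from adult male C57BL/6J mice aged 5 to 6 weeks. The input was 1 ng of RNA per library, and the labels name no treatment, no engineered allele and no second group. The libraries are biological replicates 1 and 2, from separate biosamples that carry the same donor identifier, so a difference between them need not be a difference between animals. Whether cells of several animals were pooled, and the gate used to sort them, were not taken from the linked protocols.

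Most of these chains belong to the class I cytokine receptors, which have no kinase of their own and signal through bound JAK kinases and STAT transcription factors. Csf3r, the receptor of granulocyte colony-stimulating factor, and Epor, the receptor of erythropoietin, work as pairs of the same chain. The receptors for GM-CSF, IL-3 and IL-5 each join a ligand-specific alpha chain (Csf2ra, Il3ra or Il5ra) to a shared beta chain, Csf2rb. The mouse also carries Csf2rb2, a beta chain that serves IL-3 alone. Il6ra binds IL-6 and hands it to Il6st, the signalling chain gp130 that is shared by a family of cytokines. Il1rl1, also called ST2, is different in kind: it is the IL-33 receptor of the IL-1 receptor family, well known on mast cells, basophils and eosinophils, and it signals through Il1rap and Myd88.

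The libraries held 82746658 and 75652762 expected counts in replicates 1 and 2, of which 49.7% and 50.2% lay outside mitochondrial, small RNA and spike-in rows, rows with numeric identifiers and the ribosomal gene Gm42418. TPM, the usual measure of relative transcript abundance, is a level per unit of transcript length, and for the receptor genes 1 TPM was worth between 72.5 and 407 reads. The defining markers of the labelled cell were low. The 10 megakaryocyte markers summed to 11.15 TPM (replicate 1) and 6.80 TPM (replicate 2), and 2 of them, Itga2b and Vwf, reached 1 TPM in both libraries. Itga2b, the integrin CD41, stood at 2.63 and 2.18 TPM, Vwf at 1.01 and 1.07 TPM, and Gp6, the platelet collagen receptor, had 0 counts in both (upper limits 0.048 and 0.051 TPM). Granulocyte markers summed to 13289 and 11983 TPM (8 of 8 at 1 TPM or more in both; highest Mpo, Elane and Ctsg), and monocyte markers to 2993 and 3428 TPM (6 of 6; highest Ly6c2, F13a1 and Ms4a6c). Erythroid markers summed to 615 and 322 TPM (6 of 8; highest Car1, Tfrc and Ermap), and mast cell, basophil and eosinophil markers to 211.0 and 221.2 TPM (9 of 9; highest Kit, Cpa3 and Mcpt8). Stem and multipotent markers summed to 99.4 and 85.2 TPM (3 of 6; highest Cd34, Hlf and Flt3). Lymphoid markers summed to 1.22 and 0.70 TPM (0 of 7; highest Rora, Il7r and Cd79a, with Cd3e among those at 0 counts in both). In such bulk RNA, fewer cells of a type and less RNA per cell cannot be told apart.

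Class I receptors carry in their extracellular part a signature written WSXWS, which is tryptophan, serine, any residue, tryptophan, serine. The stretches of coding sequence around it are shown because they separate the receptor types measured here. Each stretch below is 39 bases of the GENCODE M21 coding sequence, 5′ to 3′ in the sense of the gene, with the 15 bases of the motif in capitals. The exact motif was found in 6 of the 9 class I chains.
Csf3r: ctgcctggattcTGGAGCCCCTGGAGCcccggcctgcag
Epor: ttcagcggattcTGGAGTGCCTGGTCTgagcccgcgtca
Csf2rb: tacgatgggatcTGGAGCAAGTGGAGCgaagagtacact
Csf2rb2: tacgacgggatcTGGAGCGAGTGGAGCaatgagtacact
Il6ra: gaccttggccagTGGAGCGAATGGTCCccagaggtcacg
Il6st: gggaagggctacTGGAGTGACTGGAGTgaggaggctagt
The 3 alpha chains of the GM-CSF, IL-3 and IL-5 receptors held no exact match. A search for 3 of the 4 fixed residues, added after the exact search, found 1 stretch in each of them.
Csf2ra: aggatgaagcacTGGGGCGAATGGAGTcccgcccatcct
Il3ra: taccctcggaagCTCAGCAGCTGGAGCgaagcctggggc
Il5ra: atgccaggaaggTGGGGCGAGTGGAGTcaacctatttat
Il1rl1 held neither form. In codons counted from the start codon, the motif begins at codon 319 of 837 in Csf3r, 232 of 507 in Epor, 428 of 896 in Csf2rb, 427 of 878 in Csf2rb2, 300 of 460 in Il6ra and 308 of 917 in Il6st. In the alpha chains it begins at codon 310 of 388 in Csf2ra, 312 of 396 in Il3ra and 319 of 415 in Il5ra, and thus between 76.6% and 79.6% along the coding sequence. On GRCm38 the stretches lie in exon 6 of Csf3r (chr4:126034518-126034556, plus strand), exon 5 of Epor (chr9:21960706-21960744, minus strand), exon 10 of Csf2rb (chr15:78345504-78345542, plus strand) and exon 10 of Csf2rb2 (chr15:78287904-78287942, minus strand). Those of the IL-6 receptor chains lie in exon 6 of Il6ra (chr3:89885918-89885956, minus strand) and exon 8 of Il6st (chr13:112490585-112490623, plus strand). Those of the alpha chains lie in exon 9 of Csf2ra (chr19:61225527-61225565, minus strand), exon 9 of Il3ra (chr14:14351122-14351160, plus strand) and exon 8 of Il5ra (chr6:106731797-106731835, minus strand).

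Of the 10 receptor chains, 9 reached 1 TPM in both libraries, and Il5ra did not. The same level was reached in both by 25.6% of all 43346 Ensembl genes and by 46.2% of the 21474 protein-coding genes. The median of the 10 mean levels was 7.40 TPM, beside 0.58 TPM for protein-coding genes. The 10 genes were chosen with earlier results of these data known, so these comparisons are a description alone. By mean TPM the order was Csf3r, Csf2ra, Csf2rb, Il6ra, Il6st, Il1rl1, Il3ra, Csf2rb2, Epor and Il5ra. Neighbours in this order stood apart in both libraries, and in the deposited credibility intervals, with the exception of Il1rl1 and Il3ra and of Csf2rb2 and Epor. These pairs changed places between the libraries. Csf3r and Csf2ra together made up 59.6% of the summed TPM of the 10 genes in replicate 1 and 59.5% in replicate 2. The 10 genes summed to 146.97 and 153.67 TPM, from 25948 and 25939 expected counts. Because TPM has a fixed total, leaving out the mitochondrial, small RNA, spike-in, numeric and Gm42418 rows would multiply every level by 2.20 in replicate 1 and 2.18 in replicate 2, with the order unmoved.

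**Figure D1:**
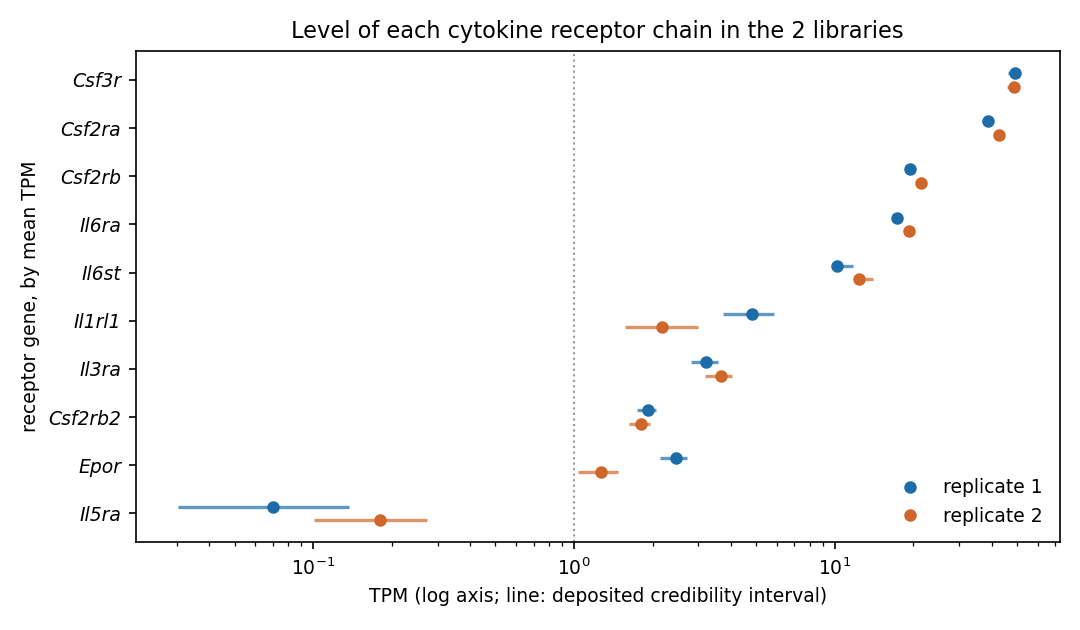
TPM of each receptor gene (log axis) in replicate 1 (blue) and replicate 2 (orange), with lines for the deposited credibility interval, whose level the files do not state; the dotted line marks 1 TPM. Csf3r and Csf2ra stand highest, between 38.5 and 49.0 TPM, and Il5ra, at 0.07 and 0.18 TPM, is the gene to the left of the line.

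Csf3r, the granulocyte colony-stimulating factor receptor (ENSMUSG00000028859.10, chromosome 4, 126024550 to 126044440), was the highest of the chains. It had 49.00 TPM in replicate 1 and 48.69 TPM in replicate 2, a mean of 48.8 ± 0.2 TPM (SD, n = 2), from 6888 and 6766 expected counts. That placed it at percentile 93.9 of protein-coding genes by mean TPM. Transcripts with the full coding sequence of 837 codons took 88.9% and 91.1% of its reads, and 64.3% and 69.9% of its TPM. The remainder went to 2 transcripts without a coding sequence, of 921 and 696 bases, which have a high TPM per read because they are short. The coding transcripts alone stood at 31.53 and 34.05 TPM, so Csf3r then fell below Csf2ra in both libraries. The lead of Csf3r over Csf2ra thus holds for the whole gene and not for its coding transcripts.

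Csf2ra, the alpha chain of the GM-CSF receptor (ENSMUSG00000059326.6, chromosome 19, 61223957 to 61228429), had 38.54 and 42.79 TPM, a mean of 40.7 ± 3.0 TPM (SD, n = 2). Il3ra, the alpha chain for IL-3 (ENSMUSG00000068758.7, chromosome 14, 14346275 to 14356011), had 3.22 and 3.65 TPM, a mean of 3.43 ± 0.30 TPM. Il5ra, the alpha chain for IL-5 and a marker of the eosinophil lineage (ENSMUSG00000005364.9, chromosome 6, 106710357 to 106749037), had 0.07 and 0.18 TPM. The 3 alpha chains thus spread widely, with Csf2ra at 11.97 and 11.72 times the level of Il3ra in the respective libraries. Il5ra rested on 7 and 16 reads, and its deposited intervals were 0.030 to 0.137 TPM and 0.101 to 0.274 TPM. It was not at 0 in either library, while the eosinophil granule genes Prg2 (17.74 and 30.77 TPM) and Epx (2.39 and 3.75 TPM), named here after their values were seen, stood higher.

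Csf2rb, the beta chain shared by all 3 alpha chains (ENSMUSG00000071713.4, chromosome 15, 78325752 to 78353847), had 19.40 and 21.43 TPM, a mean of 20.4 ± 1.4 TPM (SD, n = 2). Csf2rb2, the IL-3-specific beta chain (ENSMUSG00000071714.5, chromosome 15, 78282507 to 78305721), had 1.93 and 1.81 TPM, a mean of 1.87 ± 0.09 TPM. Csf2rb exceeded Csf2rb2 by 10.05 times in replicate 1 and 11.84 times in replicate 2. Of all reads given to the beta chains, Csf2rb2 took 8.79% (95% Clopper-Pearson interval 8.09 to 9.52) in replicate 1 and 7.57% (6.92 to 8.25) in replicate 2. Such intervals cover counting error only, since copies made by PCR are not separate molecules. The ratio of Csf2ra to Csf2rb was 1.99 and 2.00, and that of the 3 alpha chains to the 2 beta chains was 1.96 and 2.01. For the IL-3 receptor the shared chain was the higher, with Csf2rb at 6.02 and 5.87 times the level of Il3ra. Csf2rb2 stood at 0.60 and 0.50 times the level of Il3ra.

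The 2 beta chain genes are close copies, so their separate values depend on reads that can be told apart. They lie on opposite strands with 20268 bases between their quantified transcripts. Their coding sequences agreed at 95.2% of 2628 aligned bases, and their translations at 92.0% of 876 aligned residues. Of all stretches of 50 bases in the Csf2rb transcript, 18.9% also occur in that of Csf2rb2, and of stretches of 100 bases 7.2% do. The deposited posterior SD of the count was 3.34 reads in replicate 1 and 4.24 reads in replicate 2 for each gene, so the division of shared reads moved the 537 and 468 reads of Csf2rb2 little under the authors' model. A stretch of exon 4 is shown because, of all stretches of 90 coding bases within 1 exon, it held the most differences. There were 16 of them, with the differing bases in capitals (Csf2rb at chr15:78338897-78338986, plus strand; Csf2rb2 at chr15:78294345-78294434, minus strand; GRCm38).
Csf2rb: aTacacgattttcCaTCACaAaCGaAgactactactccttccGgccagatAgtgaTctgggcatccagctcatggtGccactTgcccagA
Csf2rb2: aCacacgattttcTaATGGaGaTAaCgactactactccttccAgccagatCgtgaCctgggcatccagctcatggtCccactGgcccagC
Summed, the 2 beta chain genes had 21.33 and 23.24 TPM.

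Epor, the erythropoietin receptor (ENSMUSG00000006235.5, chromosome 9, 21958897 to 21963506), had 2.46 TPM in replicate 1 and 1.27 TPM in replicate 2, a mean of 1.87 ± 0.84 TPM (SD, n = 2). The values rested on 258 and 124 reads, and the deposited intervals, 2.13 to 2.72 TPM and 1.04 to 1.48 TPM, did not overlap. Epor was at percentile 56.2 of protein-coding genes, near the middle of their range. Csf3r exceeded Epor by 19.92 times in replicate 1 and by 38.34 times in replicate 2.

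Il6ra, the IL-6 binding chain (ENSMUSG00000027947.7, chromosome 3, 89864059 to 89913196), had 17.30 and 19.30 TPM, a mean of 18.3 ± 1.4 TPM (SD, n = 2). Il6st, the gp130 chain that signals for it (ENSMUSG00000021756.8, chromosome 13, 112464070 to 112510086), had 10.23 and 12.37 TPM, a mean of 11.3 ± 1.5 TPM. The binding chain was above the signalling chain in both libraries, by 1.69 and 1.56 times at the level of whole genes. Il6st transcripts with the longest coding sequence alone stood at 6.82 and 7.84 TPM, further below Il6ra. Of the 10 Il6st transcripts in the files, the one with 917 codons and the longest sequence took 66.7% and 63.4% of the gene's TPM, and transcripts with this coding sequence took 86.9% and 87.5% of its reads. A transcript with 327 codons was listed at 0 reads in replicate 1 and 254 reads in replicate 2, with deposited intervals of up to 0.418 TPM and from 1.33 to 3.10 TPM. It held 20.5% of Il6st TPM in replicate 2.

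The other chains that pair with gp130 were uneven. Il11ra1, the IL-11 receptor, had 19.30 and 11.67 TPM, above Il6ra in replicate 1 and below it in replicate 2, though reads of its close copy Il11ra2 may be divided with it. Lifr, the LIF receptor, had 0.21 and 0.09 TPM. Its reads were 46 and 48, and the effective length behind its TPM differed between the libraries. Il27ra, which pairs with gp130 for IL-27, had 0.79 and 0.35 TPM. Osmr, the oncostatin M receptor, had 0 counts in both, with deposited intervals of 0.0117 to 0.118 and 0.0116 to 0.126 TPM. Adam10 and Adam17, the proteases known to shed Il6ra from the cell surface, stood at 43.83 and 43.42 TPM and at 12.78 and 12.48 TPM.

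Il1rl1, the IL-33 receptor (ENSMUSG00000026069.11, chromosome 1, 40429570 to 40465415), had 4.82 TPM in replicate 1 and 2.18 TPM in replicate 2, a mean of 3.50 ± 1.87 TPM (SD, n = 2), from 724 and 378 reads. Replicate 1 was the higher by 2.21 times in TPM and by 1.73 times in reads scaled to the libraries. This gene makes a membrane receptor and, from a shorter transcript, a soluble form that binds IL-33 away from the cell. Transcripts of the membrane form, with 567 codons, had 613.68 and 294.41 reads. Those of the soluble form, with 337 codons, had 76.1 and 74.1 reads. The membrane form thus took 84.8% and 77.9% of Il1rl1 reads and the soluble form 10.5% and 19.6%. In TPM the membrane form was at 1.98 and 0.99, and the soluble form at 0.51 in both libraries.

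The lower value of Il1rl1 in replicate 2 lay with the membrane form, whose log2 ratio of reads was -0.91, and with a fragment, while that of the soluble form was 0.11. The difference between the forms was not tested, and the division of reads between transcripts is an estimate. The fragment, a transcript of 375 bases with 65 codons, took 4.7% and 2.5% of the reads and yet 48.3% and 31.5% of the TPM of the gene. With the membrane form alone, the mean level of Il1rl1 was 1.49 ± 0.70 TPM, below Il3ra, Csf2rb2 and Epor in the order, and it was under 1 TPM in replicate 2. Within the membrane form, reads moved between 2 transcripts with the same coding sequence and different first exons. One was listed at 419.36 and 0 reads, and the other at 194.32 and 294.41 reads, with deposited posterior SDs of 42.8 to 78.0 reads.

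**Figure D2:**
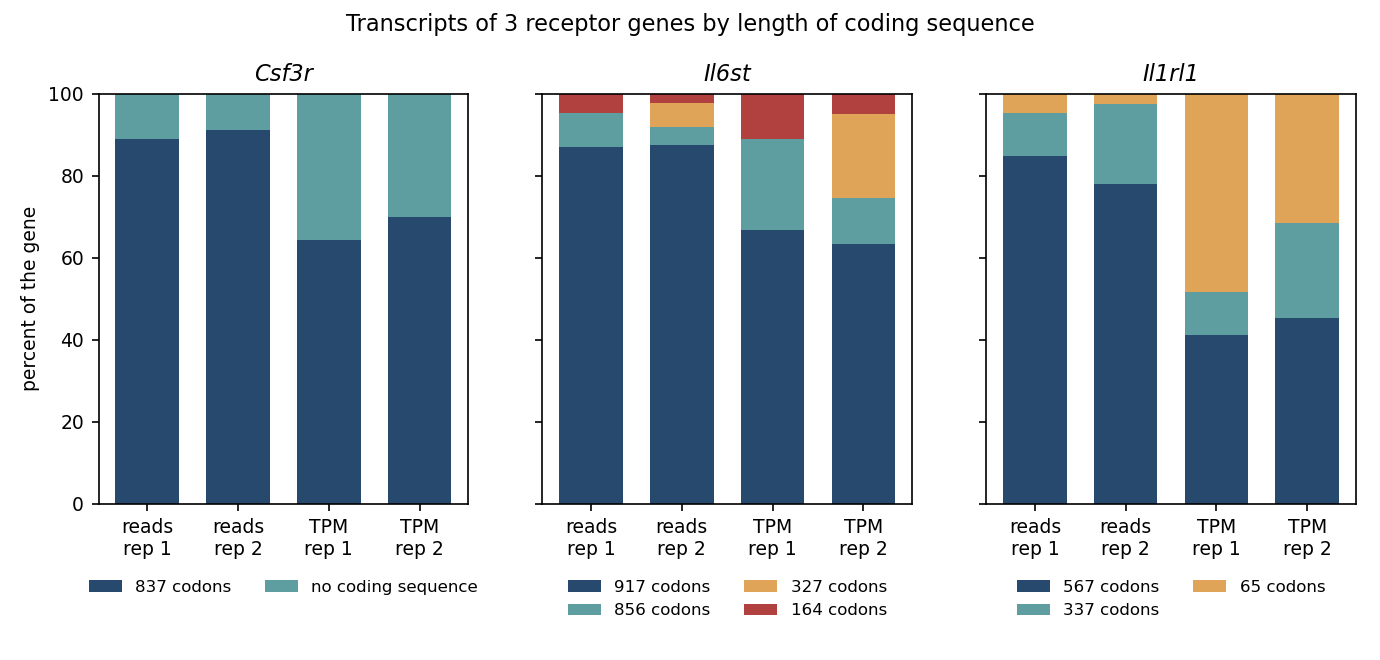
Percent of reads and percent of TPM of Csf3r, Il6st and Il1rl1 in each library (rep 1 and rep 2), divided by the length of the coding sequence of the transcripts. The longest coding sequence held 77.9% or more of the reads in every bar of reads, and between 41.1% and 69.9% of the TPM.

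The partners of Il1rl1 were present. Il1rap, its co-receptor, had 9.98 and 9.45 TPM, and was the highest of 7 other IL-1 family receptor genes, before Il18rap (4.58 and 4.72 TPM) and Il1rl2 (3.80 and 4.98 TPM). Of these 7 genes 5 reached 1 TPM in both libraries. All 6 genes listed for IL-33 signalling, Il1rap among them, did so, with Irak1 at 34.5 and 31.0 TPM, Map3k7 at 16.24 and 12.62 TPM and the adaptor Myd88 at 14.25 and 13.93 TPM.

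The labels give no contrast, so the remaining comparison is between the 2 libraries, and it says nothing on conditions. For each of 14304 genes, the division of reads between the libraries was set against the ratio of their TMM-scaled sizes by an exact binomial test, two-sided and adjusted by Benjamini-Hochberg. A gene was called where the adjusted p was under 0.05 and the log2 ratio was at least 1 in either direction. Of the 9 receptor genes with enough reads to test, 0 were called, beside 7.66% of all genes tested. With no limit on the ratio 7 of the 9 passed, beside 59.0% of all genes, and the same number had an unadjusted p under 0.05. At this depth the test picks out small differences in reads. The median absolute log2 ratio was 0.20 for the receptor genes and 0.21 for all genes tested.

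The 9 genes fell on both sides of 0. Reads of 6 were higher in replicate 2, with log2 ratios of 0.12 for Csf3r, 0.19 for Csf2ra, 0.19 for Csf2rb, 0.20 for Il6ra, 0.23 for Il6st and 0.23 for Il3ra. Of these, Il3ra did not pass the exact binomial test (adjusted p = 0.12; 95% interval of the log2 ratio -0.03 to 0.48), and the adjusted p of the other 5 lay between 1.2e-12 and 2.3e-06. Among genes of 10 TPM or more, the median absolute log2 ratio was 0.12, which is where Csf3r lay. Ratios as large as those of Il6st, Il6ra, Csf2ra and Csf2rb were found in 22.8%, 28.9%, 30.1% and 31.8% of these genes. Csf2rb2, at -0.05 (-0.23 to 0.13; exact binomial test, adjusted p = 0.69), did not pass. Il5ra did not enter the test. Its log2 ratio was 1.34 with no prior count, with an interval of -0.02 to 2.87.

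Epor and Il1rl1 also had fewer reads in replicate 2, and by more than Csf2rb2. Epor had a log2 ratio of -0.90 (95% interval -1.23 to -0.59; exact binomial test, adjusted p = 2.1e-08), and Il1rl1 one of -0.79 (-0.97 to -0.61; exact binomial test, adjusted p = 1.9e-17). Both passed on the p and stayed short of the limit on the ratio. Among the 5716 tested genes of 1 to 10 TPM, 8.0% had an absolute log2 ratio as large as that of Epor and 10.9% one as large as that of Il1rl1.

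**Figure D3:**
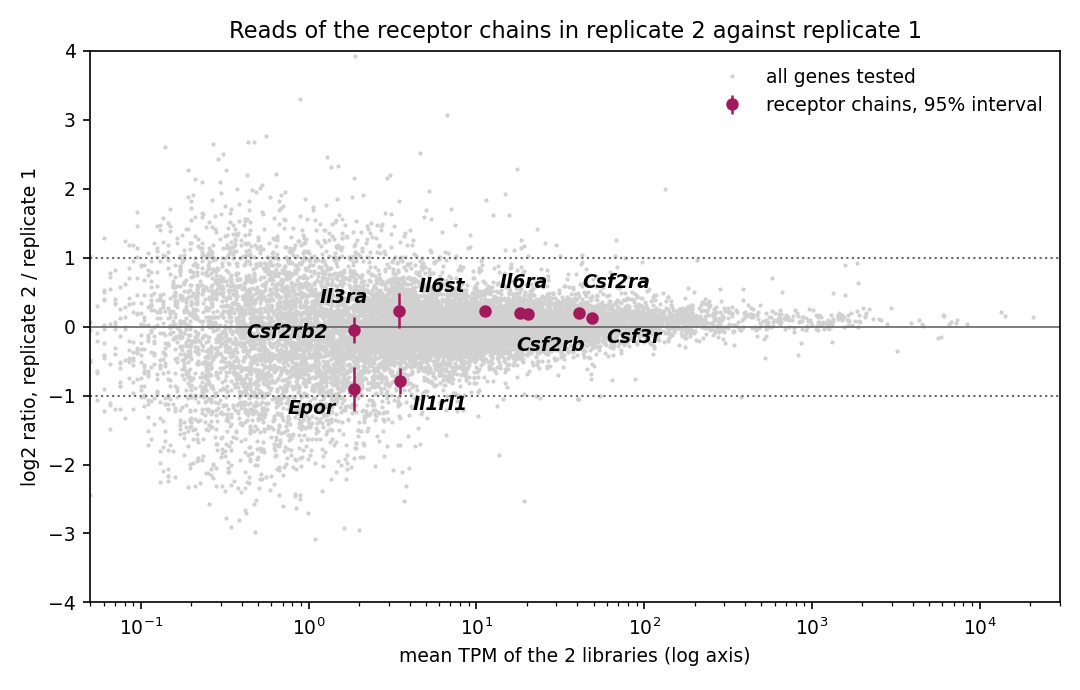
Log2 ratio of reads in replicate 2 against replicate 1, with a prior count of 2, by mean TPM (log axis) for the genes tested (grey; 17 lie outside the plotted range) and the 9 receptor genes tested (purple, with the 95% Clopper-Pearson interval of the ratio). Epor and Il1rl1 lie at -0.90 and -0.79, above the dotted limit at -1, and the other 7 lie between -0.05 and 0.23.

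Some marker genes differed between the libraries in the same direction. Of the 8 erythroid markers 6 had fewer reads in replicate 2, with Gata1 at 10.81 and 4.48 TPM (log2 ratio of reads -1.23), Car1 at 511.9 and 242.3 TPM (-1.03) and Ermap at 19.86 and 10.54 TPM (-0.87). Slc4a1, at 0.47 and 0.85 TPM (0.89), and Hba-a1, whose close copy shares its reads, at 5.76 and 11.98 TPM (1.14), had more. Of these, Gata1, Car1 and Hba-a1 were called, while 7.66% of all genes tested were called. Of the 6 megakaryocyte markers tested 5 had fewer reads in replicate 2, and 2 were called, Gp1ba (-1.19) among them. Of the 9 mast cell, basophil and eosinophil markers 4 had fewer reads in replicate 2, and the sum of the list was 211.0 and 221.2 TPM. Of these 9 markers 0 were called, though some passed on the adjusted p of the exact binomial test alone. All 6 monocyte markers had more reads in replicate 2, with 0 called. All 6 passed on the adjusted p alone, beside 59.0% of all genes tested. All 5 stem and multipotent markers tested had fewer reads in replicate 2, with Mecom called (-2.70; 1.76 and 0.22 TPM). Of the 3 lymphoid markers tested 2 had fewer reads in replicate 2, and both, Il7r (-1.95) and Rora (-1.12), were called. Of the 8 granulocyte markers 3 had fewer reads in replicate 2, with 0 called. Each list is short, and its count of called genes was not tested against the share of all genes. The part of these markers in the lower values of Epor and Il1rl1 was not tested.

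Promoter windows of 200 bases before the RefSeq start (GRCm38.p6) were found for 9 of the 10 genes, and Csf2rb had no entry. The letters AGATAA, a form of the sequence that GATA factors read, were searched on both strands, and other forms of it were not searched. They occurred in Epor at 54 bases before the start, in Il5ra at 74 bases and, of the 2 windows of Il1rl1, in the one at the downstream start at 103 bases. The other 6 genes held no match to these letters in this window, and 7.8% of all 32851 windows held one. The 3 windows with a match are shown so that its place can be seen, with the match, on either strand, in capitals. They lie at chr9:21963577-21963776 (Epor, minus strand), chr1:40439429-40439628 (Il1rl1, plus strand) and chr6:106749038-106749237 (Il5ra, minus strand).
Epor: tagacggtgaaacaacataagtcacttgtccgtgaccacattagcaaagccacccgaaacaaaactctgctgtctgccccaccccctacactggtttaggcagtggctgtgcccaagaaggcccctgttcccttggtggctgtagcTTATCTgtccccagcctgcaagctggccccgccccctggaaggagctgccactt
Il1rl1: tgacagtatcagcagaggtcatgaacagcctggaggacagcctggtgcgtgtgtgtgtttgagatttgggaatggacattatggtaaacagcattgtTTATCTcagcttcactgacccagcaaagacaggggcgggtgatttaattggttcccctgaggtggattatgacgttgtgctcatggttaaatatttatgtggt
Il5ra: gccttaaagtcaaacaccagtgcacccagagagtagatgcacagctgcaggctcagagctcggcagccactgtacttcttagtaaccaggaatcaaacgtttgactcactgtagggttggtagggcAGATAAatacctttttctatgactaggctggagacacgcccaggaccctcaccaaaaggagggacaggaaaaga
The letters GAGGAA, as read by the myeloid factor PU.1, which is the product of Spi1, were held by 4 genes (Csf3r, Csf2ra, Csf2rb2 and Il6ra) and by 19.0% of all windows. In Csf2ra there were 2 matches, side by side. A match is a description of the letters and not a site of binding. The windows follow RefSeq starts, which can lie away from the starts of the quantified transcripts. The leading Csf3r transcript starts at 126027292, downstream of its window, and the quantified Il5ra transcript starts at 106745109 (minus strand), also downstream. That of Epor starts at 21963506 (minus strand), downstream of its window, whose nearest base is 21963577, so the 54 bases count from the RefSeq start. Of the 8 transcription factor genes listed beside the receptors, all reached 1 TPM in both libraries. Spi1 had 75.06 and 97.66 TPM, Runx1 42.83 and 42.29 TPM and Cebpa 23.58 and 25.44 TPM, and Gata1 was the factor called between the libraries.

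The ligands of these receptors were scarce in the same RNA. Of 14 ligand genes 8 had 0 counts in both libraries: Csf3, Csf2, Il3, Il5, Epo, Il33, Il11 and Thpo, which are named here after their values were seen. For these genes the limit that a count of 0 sets was at most 0.098 TPM (replicate 1) and 0.11 TPM (replicate 2), and the deposited intervals reached up to 0.374 and 0.394 TPM, for Il33. The 3 highest ligands were Osm, oncostatin M, at 4.70 and 8.39 TPM, Clcf1 at 2.05 and 1.16 TPM and Csf1 at 0.89 and 1.98 TPM. Il6, the ligand of Il6ra, named likewise, had 0.37 and 0.55 TPM. Lif was called between the libraries, with 12 and 70 reads and 0.05 and 0.57 TPM. Osm was thus measured where its specific receptor Osmr was listed at 0 and the shared chains Il6st and Lifr were at 11.3 ± 1.5 and 0.15 ± 0.09 TPM (SD, n = 2).

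Of 20 other class I receptor genes, 6 reached 1 TPM in both libraries, and their median was 0.23 TPM. The median was 7.40 TPM for the 10 chains, with Il1rl1 of the IL-1 receptor family among them. Both lists were chosen with earlier results of these data known, so the medians are a description alone. The highest were Il11ra1, Il2rg, the common gamma chain (16.63 and 13.95 TPM), and Il12rb2 (3.91 and 3.21 TPM). Osmr, Cntfr, Prlr and Il23r had 0 counts in both, though the deposited intervals of Osmr, Cntfr and Prlr left out 0 in both libraries. Their lower bounds in replicate 1 were 0.012, 0.042 and 0.069 TPM. Between the libraries 4 of the 12 tested were called, beside 7.66% of all genes tested. The 4 included Il27ra (log2 ratio -1.10) and Il7r (-1.95), which had fewer reads in replicate 2, and Il13ra1 (1.26), which had more. Il18r1 was called among the IL-1 family receptors (-1.75; 0.66 and 0.22 TPM).

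The signalling machinery shared by the receptors was measured throughout. All 11 JAK and STAT genes reached 1 TPM in both libraries. Of these, 0 were called, beside 7.66% of all genes tested. Some passed on the adjusted p of the exact binomial test alone, beside 59.0% of all genes tested. Jak1, which gp130 uses, had 28.50 and 24.99 TPM, Jak2, the kinase of Epor and the beta chains, had 17.12 and 17.09 TPM, and Tyk2 had 3.43 and 4.06 TPM. All 11 adaptor and kinase genes reached the same level, with Pik3r1 at 37.10 and 36.49 TPM, Grb2 at 35.21 and 32.38 TPM, Cbl at 31.26 and 32.48 TPM and Lyn, a kinase of the beta chain complex, at 25.3 and 28.0 TPM. Here too 0 were called, though some passed on the adjusted p of the exact binomial test alone.

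Inhibitors of these pathways were split. Ptpn6, the phosphatase SHP-1, stood at 49.8 and 48.3 TPM, Inpp5d, the phosphatase SHIP-1, at 27.3 and 23.9 TPM, and Pias1 at 17.13 and 15.02 TPM. Of 9 inhibitors 5 reached 1 TPM in both libraries, and the remaining 4 were the SOCS family genes Socs1, Socs2, Socs3 and Cish, under 1 TPM in both. Of the 8 inhibitors tested 1 was called, beside 7.66% of all genes tested. It was Socs3, with a log2 ratio of 1.34 from 18 and 44 reads, although its TPM was 0.39 and 0.32. The effective length behind that TPM differed between the libraries, so that 3 reads of Socs3 were worth 0.065 and 0.022 TPM. Of 10 genes known as STAT5 targets 0 were called, beside 7.66% of all genes tested. Some passed on the adjusted p of the exact binomial test alone, beside 59.0% of all genes tested. In both libraries 9 of them reached 1 TPM, with Myc at 155.2 and 135.4 TPM, Mcl1 at 61.9 and 77.9 TPM and Ccnd3 at 39.4 and 41.5 TPM. Cish, a STAT5 target as well as an inhibitor, was the member below that level, at 0.35 and 0.21 TPM.

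**Figure D4:**
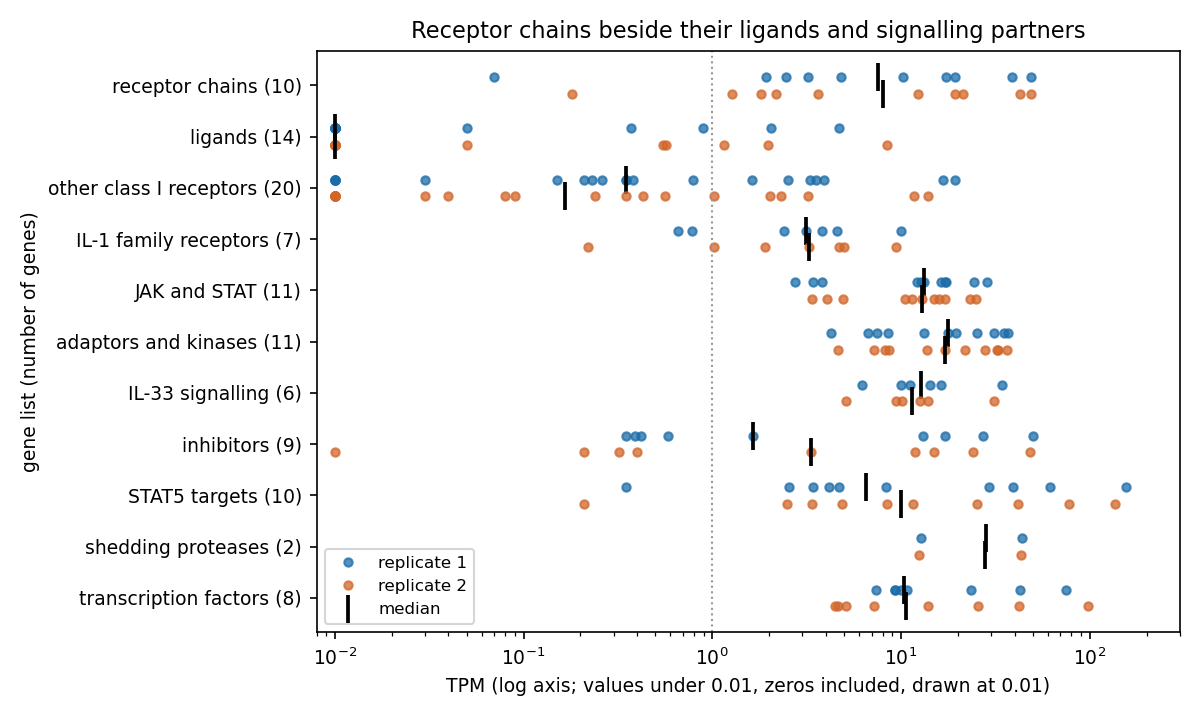
TPM of each gene (log axis, values under 0.01 drawn at 0.01) in replicate 1 (blue) and replicate 2 (orange) for the receptor chains and 10 lists of ligands, other receptors and signalling partners, with the median of each list and library as a black bar and 1 TPM as a dotted line. The ligand median lies at 0, and the medians of the JAK and STAT, adaptor and IL-33 signalling lists lie above 10 TPM in both libraries.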

How the data were processed

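Per the file lists deposited with the samples, reads were aligned to mm10 and quantified against GENCODE M4, each library on its own. The columns are named as RSEM names them. For the aligner, tool versions, strandedness and read layout, nothing is stated in the labels or headers used. The unit of the deposited expected counts is estimated reads for each gene or transcript, without normalization, per the file headers. The authors' TPM and FPKM are scaled over all rows, FPKM being used only to check the order. The deposited percent values give each transcript's part of a gene's TPM. The deposited score columns hold posterior SDs and credibility bounds, of unstated level, around the posterior mean. Effective lengths were used as deposited. Symbols and gene positions came from GENCODE M21 (GRCm38), which matched 42462 of 43346 Ensembl genes, promoters from RefSeq, and coding sequences from GENCODE M21 transcripts.

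Expected counts were rounded, genes passing edgeR's filterByExpr (edgeR 4.0.16, R 4.3.3) were scaled by TMM, and each gene was compared by the exact two-sided binomial test, with log2 ratios on a prior count of 2. The test covers counting error between 2 libraries, and the script was tested on simulated data. Intervals of ratios are Clopper-Pearson at 95%, and the limit of a count of 0 is 3 counts. Levels are means ± SD of 2 libraries, which may be technical spread. The receptor genes and the lists were chosen with earlier results of these data known. Named are all receptor genes, fixed binding partners, and of each list the 3 highest by mean TPM, members at 0 counts in both libraries where 5 or fewer, and those called; a few of these are not reported here. Alternatives were other TPM limits, posterior mean TPM, rescaled TPM, DESeq2 1.42.0 size factors, other totals, filters and prior counts, counts divided by 4, summed beta chains and each library left out. Restricting genes to their longest coding sequence was chosen after seeing the data. The deposited readme files were read for the build and annotation alone.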

Additional observations from a re-analysis of the deposited data

How the results depend on the processing

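The number of receptor genes at 1 TPM or more in both libraries was 9. It was 7 with a limit of 2 TPM, which Csf2rb2 and Epor did not reach in both, and 8 with transcripts of the longest coding sequence alone, where Il1rl1 dropped out. With no limit on the log2 ratio, 7 receptor genes differed between the libraries in place of 0. DESeq2 size factors, another total, no filter, another prior count, summed beta chains and counts divided by 4 each left that number at 0. Over all genes, 1096 were called, against 3382 with no filter on low counts and 546 with counts divided by 4. With counts divided by 4, Csf3r no longer passed on the adjusted p (0.05 by the exact binomial test). With no filter, Il5ra had a log2 ratio of 1.13 (exact binomial test, adjusted p = 0.066). The log2 ratio of each of the 9 tested genes kept its sign under every scaling tried. In the order of levels, posterior mean TPM placed Epor before Csf2rb2, and FPKM kept the order of TPM. No paired analysis was possible because the labels give 1 group. Depth limits Il5ra most, with 7 and 16 reads.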
